A study of Rattus norvegicus with 8 samples.

Results

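The miRNAs described here are the products of the miR-199a and miR-214 precursors in the prostatic urethra of the rat. They were chosen by name, as every miRNA on the array called rno-miR-199a or rno-miR-214 with either strand, which gave 4 of the 758 rat miRNAs measured. rno-miR-199a-5p, rno-miR-199a-3p and rno-miR-214-3p were detected on all 8 arrays, and rno-miR-214-5p was detected on 0.

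A precursor hairpin is processed into a 5p strand and a 3p strand, and the strand that is loaded into an Argonaute protein guides it to messenger RNAs that pair with the seed near its 5′ end. In mammals, miR-214 and a copy of miR-199a lie close together on the strand opposite the Dnm3 gene and are made from a long noncoding transcript, Dnm3os, which the transcription factor Twist1 can switch on. The cluster is known from mesenchyme and fibroblasts, and its miRNAs have been studied in fibrosis of several organs, where TGF-beta can raise them in fibroblasts. Known targets are caveolin-1 for miR-199a-5p and the kinase mTOR for miR-199a-3p.

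All animals were male SD rats, 10 to 12 months old, and tissue was harvested 5 days after surgery. In the TULP group (n = 4) the lining of the prostatic urethra had been vaporized with a thulium laser through an opened abdomen, which simulates transurethral laser prostatectomy. The sham group (n = 4) had only the abdomen opened. The TULP procedure also included a cut into the bladder, a sheath tied into it, rinsing with saline and an endoscope passed into the urethra. The sham procedure as described lacks these steps, so they cannot be told apart from the laser in any difference given here. The labels number the samples of each group as biological replicates 1 to 4. Titles, tissue names and treatment fields set the TULP samples apart as trauma tissue, but their descriptions speak of sham surgery, and every difference given here rests on the titles.

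The 4 mature sequences, from RefSeq on the rat build GRCr8, are shown because they differ in the part that selects targets. Capitals mark the seed, bases 2 to 8.
rno-miR-199a-5p: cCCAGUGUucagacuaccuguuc
rno-miR-199a-3p: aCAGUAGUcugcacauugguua
rno-miR-214-5p: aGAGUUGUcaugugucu
rno-miR-214-3p: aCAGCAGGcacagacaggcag
The 4 miRNAs carried 4 distinct seeds, and 0 of the other mature rat miRNAs among the 693 in the table shared any of them. So the miRNAs of this cluster form no seed family.

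In GRCr8 the Mir199a2 hairpin spans chr13:77116225-77116334 and the Mir214 hairpin chr13:77121645-77121752, both on the plus strand. They are separated by 5310 bases, and both lie inside Dnm3 (chr13:76892381-77371346), which is read from the minus strand and encodes dynamin-3. In the mature sequences' order along the chromosome, miR-199a-5p lies at chr13:77116255-77116277, miR-199a-3p at chr13:77116294-77116315, miR-214-5p at chr13:77121656-77121672 and miR-214-3p at chr13:77121713-77121733. A miR-199a made from another locus with the same mature sequence would be measured by the same probes. The minus strand opposite Mir214 carries Mir3120 (chr13:77121647-77121763), and rno-miR-3120 was detected on 0 of the 8 arrays.

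The Mir214 hairpin is shown with its mature arms in capitals, since its arms gave opposite detection results.
Mir214: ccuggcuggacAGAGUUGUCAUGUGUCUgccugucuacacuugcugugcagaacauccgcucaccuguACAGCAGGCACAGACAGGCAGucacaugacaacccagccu

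Each miRNA was read by a pair of probes that differ by a single base and are complementary to it from its 3′ end inward, reaching the first base for miR-214-5p, printed 5′ to 3′ with that added base in capitals.
rno-miR-199a-5p probes: gaacaggtagtctgaaca and gaacaggtagtctgaacaC
rno-miR-199a-3p probes: taaccaatgtgcagactac and taaccaatgtgcagactacT
rno-miR-214-3p probes: ctgcctgtctgtgc and ctgcctgtctgtgcC
rno-miR-214-5p probes: agacacatgacaactc and agacacatgacaactcT
No probe was a perfect complement of any other mature sequence in the table (0 matches). Probes of different length and composition bind with different strength, so signals of different miRNAs were not ranked against each other.

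The arrays measured spot brightness (intensity) with 1806 probes on 12128 spots, of which 0 were saturated. The sham arrays detected 146 to 156 miRNAs and the TULP arrays 136 to 151. The summed signal of detected miRNAs before normalization was 21075 to 37357 on the sham arrays and 16787 to 19464 on the TULP arrays, so the TULP arrays were dimmer as a group. TULP replicate 1 correlated about equally with its own group (mean r = 0.921 over miRNAs) and with the sham group (0.919), whereas the other TULP arrays had a mean r of 0.947 to 0.956 with their own group. Values below are log2 of quantile normalized signal unless stated, and thus place a miRNA among the others on its array. Differences are TULP minus sham, tested with limma across the 151 miRNAs detected on at least 4 arrays.

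miR-214-3p and miR-199a-5p were higher in the TULP group than in the sham group relative to the other miRNAs, by 1.89-fold and 1.51-fold, and miR-199a-3p was 1.18-fold higher without passing the test and lower with spike-in scaling or no normalization. None of these miRNAs reached the more than 2-fold change required for a call of differential expression. The differences of miR-214-3p and miR-199a-5p did not pass when arrays were scaled to the labelling spike-ins, synthetic RNAs added to the samples before labelling: they were then 0.12 and -0.07.

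miR-214-3p, the strand of its hairpin that was detected, stood at 6.69, 6.91, 6.69 and 7.10 in sham replicates 1 to 4. It stood at 7.25, 7.73, 8.17 and 7.92 in TULP replicates 1 to 4. Every TULP array was above every sham array, and TULP replicate 1 was the nearest to the sham group. The means were 6.84 ± 0.20 (SD, n = 4) and 7.77 ± 0.39 (SD, n = 4), a difference of 0.92 (SE 0.21, 95% interval 0.43 to 1.41, limma adjusted p = 0.0161). Without TULP replicate 1 the difference was 1.11 (limma adjusted p = 0.00280), which is past both the adjusted p and the 2-fold threshold. Without sham replicate 4 it was 1.003 (limma adjusted p = 0.0304), also just past both thresholds. Leaving out each of the remaining arrays gave 0.77 to 0.96 (limma adjusted p up to 0.0447). The difference did not pass with the totals stored by the software (0.71, limma adjusted p = 0.0886). For miR-214-3p itself those totals equalled the signals used here apart from rounding, so they are not a separate reading of it. With normexp background correction the difference was 0.54 (limma adjusted p = 0.0453) and the groups overlapped.

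miR-199a-5p stood at 3.16, 3.71, 3.71 and 3.79 in the sham group. In the TULP group it stood at 4.20, 4.35, 4.14 and 4.05. The groups did not overlap, and sham replicate 1 was well below the other sham arrays. The means were 3.59 ± 0.29 (SD, n = 4) and 4.19 ± 0.13 (SD, n = 4), a difference of 0.60 (SE 0.16, 95% interval 0.23 to 0.97, limma adjusted p = 0.0257). It no longer passed without sham replicate 3 (limma adjusted p = 0.0541), TULP replicate 2 (0.0712) or TULP replicate 3 (0.0580), while its size stayed between 0.47 and 0.67 whichever array was left out.

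miR-199a-3p, the other strand of the same hairpin, stood at 7.73, 7.66, 7.66 and 7.78 in the sham group and at 7.92, 7.92, 7.78 and 8.17 in the TULP group. Sham replicate 4 and TULP replicate 3 had the same value, so the groups touched. The means were 7.71 ± 0.06 (SD, n = 4) and 7.95 ± 0.16 (SD, n = 4). The difference of 0.24 (SE 0.10, 95% interval 0.00 to 0.48) had an unadjusted p of 0.0493 and an adjusted p of 0.116 in limma, where 43% of all tested miRNAs had an unadjusted p under 0.05.

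**Figure D1:**
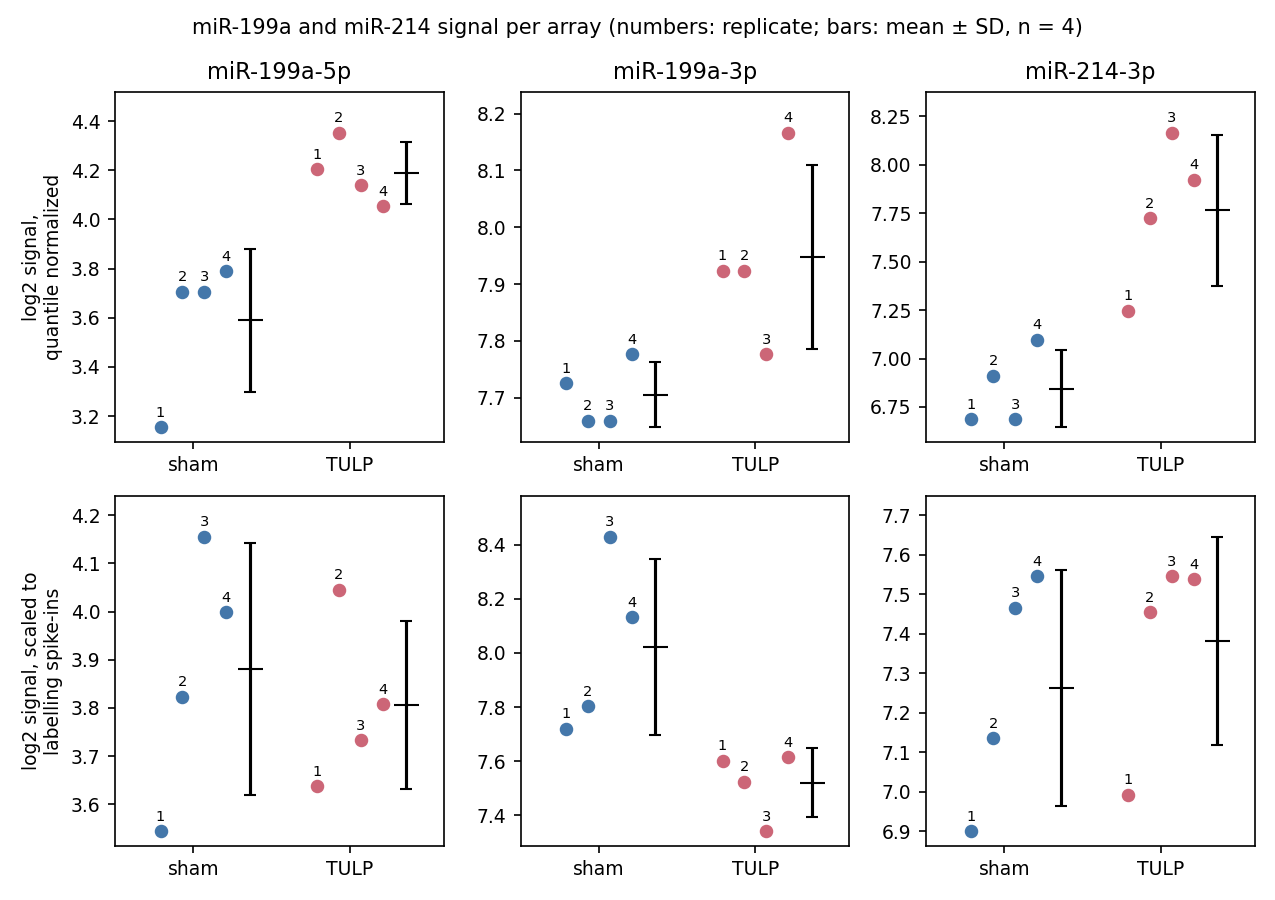
log2 signal (y axis) of the 3 detected miRNAs on each array, sham against TULP, with group means and SD (n = 4 each). The upper row is quantile normalized and the lower row scaled to the labelling spike-ins. In the upper row the TULP arrays lie above all sham arrays for miR-214-3p and miR-199a-5p. There sham replicate 4 and TULP replicate 3 share the value 7.78 for miR-199a-3p. In the lower row the groups overlap for miR-214-3p and miR-199a-5p, and TULP lies below sham for miR-199a-3p.

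miR-214-5p, the other annotated strand of Mir214, was not detected on any array. Its brightest probe reached 0.902 times its measurement error, against the more than 3 times required for detection. It therefore has no fold change, and the absence of a signal says only that it was not detectable by these probes.

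These differences stand among many. Of the 151 tested miRNAs, 46 (30.5%) passed the adjusted p, 21 (13.9%) of them higher and 25 (16.6%) lower in the TULP group. Of the 3 detected miRNAs of the cluster, 2 passed, both higher. Groups without overlap were found for 44 of the tested miRNAs (29.1%), with TULP above sham for 22 (14.6%), and for 2 of the 3 in the cluster. Differential expression with the fold threshold was called for 14 (9.27%), and 0 of these belonged to the cluster. The difference of miR-214-3p was above those of 90.1% of the tested miRNAs, that of miR-199a-5p above 82.1% and that of miR-199a-3p above 72.8%, with a median of -0.02 over all tested.

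**Figure D2:**
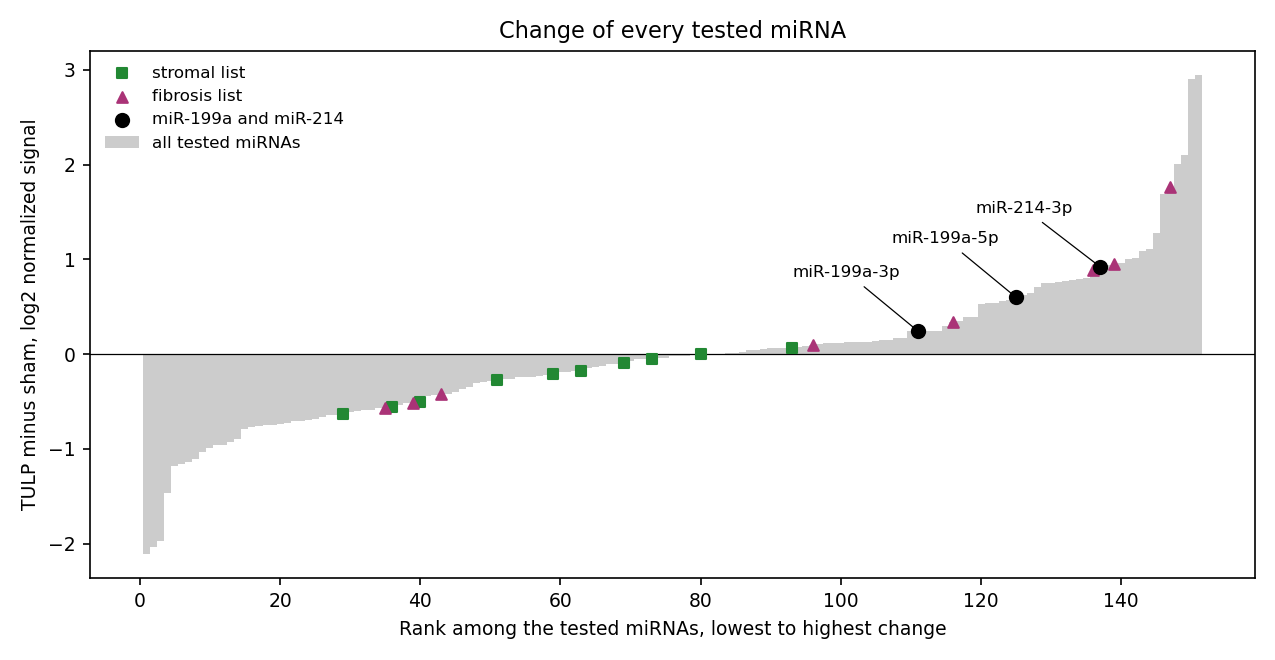
Change of each of the 151 tested miRNAs (TULP minus sham, log2 normalized signal) in order of size, with the miRNAs of the cluster marked. miR-214-3p (0.92) and miR-199a-5p (0.60) lie in the upper range and miR-199a-3p (0.24) closer to the median of -0.02.

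The signals before normalization showed where the relative scale matters. For miR-214-3p they were 99.1, 136.4, 134.3 and 222.4 in the sham group and 145.8, 189.5, 207.8 and 185.7 in the TULP group. The brightest of these arrays was sham replicate 4, so the groups overlapped, with means of 148 ± 52.4 and 182 ± 26.1 (SD, n = 4 each). For miR-199a-5p the signals were 9.68, 13.7, 13.5 and 19.0 in the sham group and 14.3, 17.8, 14.8 and 14.0 in the TULP group, again with the highest on sham replicate 4. For miR-199a-3p they were 174.9, 216.7, 261.8 and 333.8 in the sham group and 222.5, 198.9, 180.5 and 196.0 in the TULP group. Here the direction was the other way, with means of 247 ± 68.0 and 199.5 ± 17.4 (SD, n = 4 each).

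On the log2 scale without normalization the differences were 0.35 for miR-214-3p (limma adjusted p = 0.300), 0.16 for miR-199a-5p (0.610) and -0.27 for miR-199a-3p (0.364), beside a median of -0.55 over all tested miRNAs. Scaled to the spike-ins, that median was -0.78 and 87 of the 151 miRNAs passed the adjusted p (57.6%), 82 (54.3%) lower and 5 (3.31%) higher in the TULP group. The cluster had 0 of 3 among them. On that scale miR-199a-3p differed by -0.50 (SE 0.20, limma adjusted p = 0.0573) with groups that did not overlap, 7.72 to 8.43 in the sham group and 7.34 to 7.62 in the TULP group. Groups without overlap, TULP below sham, were found there for 49.7% of the tested miRNAs. miR-214-3p differed by 0.12 (adjusted p = 0.647) and miR-199a-5p by -0.07 (0.758). Taken relative to the median of all tested miRNAs, both scales gave 0.90 for miR-214-3p, 0.71 for miR-199a-5p and 0.28 for miR-199a-3p. This sameness was fixed in advance, because spike-in scaling divides all signals of an array by a single factor. The differences on quantile normalized signal are relative to the rest of the miRNA pool. In bulk tissue fewer cells of a type and less RNA per cell cannot be told apart.

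**Figure D3:**
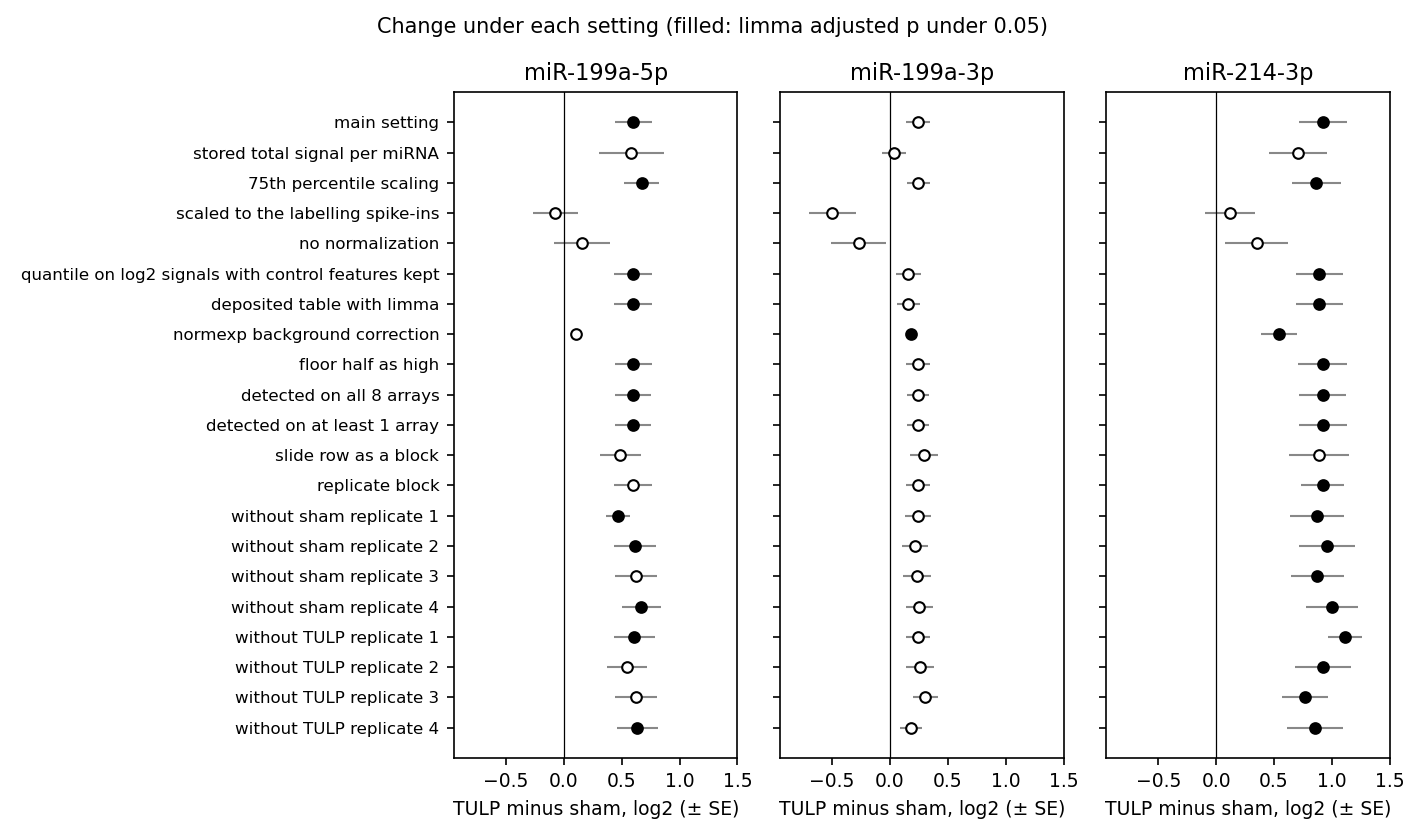
Difference between groups (TULP minus sham, log2) of the 3 detected miRNAs under each way of processing the signals. Points are the estimates and bars the estimate ± SE, which is narrower than a 95% interval. miR-199a-3p lies below 0 with spike-in scaling (-0.50) and without normalization (-0.27), and the estimate of miR-214-3p lies above 0 under every processing shown.

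A ratio between miRNAs of a single array does not depend on how arrays are scaled to each other. Ratios of their signals before normalization, chosen after the values had been seen, were compared by two-sided exact permutation tests, in which 70 labellings were possible and the smallest p is 0.0286. There were 3 ratios, and only their changes are read because probes respond differently.

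The log2 ratio of miR-199a-3p over miR-199a-5p, the strands of the same hairpin, was 4.18, 3.98, 4.27 and 4.13 in the sham group and 3.96, 3.48, 3.61 and 3.81 in the TULP group. The groups did not overlap, although TULP replicate 1 lay just below sham replicate 2. The mean fell from 4.14 ± 0.12 to 3.71 ± 0.21 (SD, n = 4 each), a difference of -0.43 or 1.34-fold lower (exact permutation p = 0.0286, 0.0857 after adjustment over the 3 ratios). Leaving out each array gave -0.51 to -0.35.

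The log2 ratio of miR-214-3p over miR-199a-3p was -0.82, -0.67, -0.96 and -0.59 in the sham group and -0.61, -0.07, 0.20 and -0.08 in the TULP group. TULP replicate 1 lay within the sham range and the other 3 TULP arrays lay above it. The means were -0.76 ± 0.17 and -0.14 ± 0.34 (SD, n = 4 each), a difference of 0.62 or 1.54-fold (exact permutation p = 0.0571, adjusted 0.0857). The difference was 0.51 to 0.78 with each array left out.

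The log2 ratio of miR-214-3p over miR-199a-5p overlapped between the groups, 3.31 to 3.55 in the sham group and 3.35 to 3.81 in the TULP group. It differed by 0.20 (exact permutation p = 0.2, adjusted p = 0.2). None of the 3 ratios passed after adjustment.

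**Figure D4:**
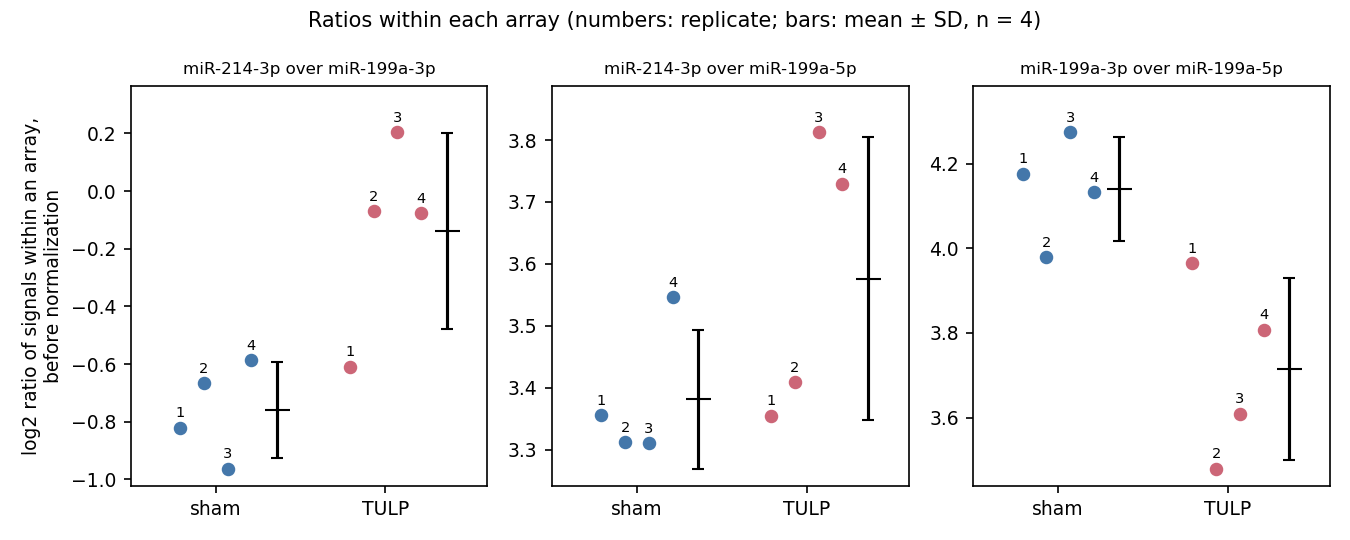
log2 ratios of signals before normalization within each array (y axis), sham against TULP, with group means and SD (n = 4 each), for the 3 pairs of detected miRNAs. The ratio of the miR-199a strands (3p over 5p) is lower on all TULP arrays than on all sham arrays, and TULP replicate 1 overlaps the sham group for miR-214-3p over miR-199a-3p.

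The strand ratio was also fitted with limma beside the other precursors with both strands measured, 11 in all. On normalized signal the miR-199a ratio was 4.12 ± 0.30 in the sham group and 3.76 ± 0.24 in the TULP group (SD, n = 4 each). The difference of -0.36 (SE 0.21, 95% interval -0.84 to 0.13) did not pass (limma adjusted p = 0.478), and 0 of the 11 precursors (0%) passed, also 0 without adjustment. Before normalization the difference was -0.43 (95% interval -0.75 to -0.10, limma adjusted p = 0.0881). There 1 of the 11 (9.09%) passed, miR-99a, named after its values were seen, with 0.70 (limma adjusted p = 0.0223). In 2 of the 11 (18.2%), miR-199a and miR-99a, the groups did not overlap. However, miR-99a-3p was detected on only 4 arrays. Its normalized log2 means were 1.17 (sham) and 1.29 (TULP), near the floor of 0.96. The other strand, miR-99a-5p, differed by -0.93 before normalization. The miR-99a ratio thus involves a strand near the floor. It cannot decide whether a separated strand ratio was particular to miR-199a.

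Both probes of miR-214-3p changed by 0.35 before normalization, and those of miR-199a-3p by -0.26 and -0.27. The 18-base probe of miR-199a-5p was detected on no array, with at most 2.98 times its error, so this strand rests on the longer probe. The 8 spots of a probe on an array had a median coefficient of variation of 2.0% to 7.6%, depending on the probe, and the scanner software gave errors of 10.0% to 15.4% of the signal.

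All arrays lay on a single slide and came from a single scan, in 2 rows that each held both groups unevenly. In the first row (sham replicate 4, TULP replicates 1 to 3) the differences were 0.62 for miR-214-3p, 0.44 for miR-199a-5p and 0.10 for miR-199a-3p. In the second row (sham replicates 1 to 3, TULP replicate 4) they were 1.16, 0.53 and 0.49. The directions were thus the same in both rows, but with the slide row as a block neither miR-214-3p (0.89, limma adjusted p = 0.0578) nor miR-199a-5p (0.49, 0.103) passed.

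Among other miRNAs known from stroma, 10 of a list of 12 were tested, and 0 were higher and 3 lower in the TULP group, beside 13.9% higher and 16.6% lower over all tested miRNAs, with a median difference of -0.19 and a range of -0.63 to 0.07. The 3 were miR-195-5p (-0.51, limma adjusted p = 0.00647), a relative of miR-16, miR-100-5p (-0.56, 0.0163) and miR-99a-5p (-0.27, 0.0336), close relatives of each other. All 3 were also lower with spike-in scaling (-1.21, -1.21 and -1.16), where all 10 passed as lower, beside 54.3% lower and a median of -0.78 over all tested miRNAs. miR-143-3p and miR-145-5p, which are abundant in smooth muscle, gave 0.07 and -0.63 without passing.

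Of a list of 10 miRNAs linked to fibrosis, 8 were tested, with a median difference of 0.22. In the TULP group 2 were higher and 1 lower, beside 13.9% higher and 16.6% lower over all tested miRNAs. With spike-in scaling 1 was higher and 4 were lower, beside 3.31% higher and 54.3% lower over all tested miRNAs. miR-21-5p, which is raised in many wounds and fibrotic tissues, was higher by 1.76 (limma adjusted p = 0.000785), also with spike-in scaling (1.05). miR-34a-5p, a target of p53, was higher by 0.95 (limma adjusted p = 0.0161), but by 0.14 with spike-in scaling without passing. miR-30a-5p was lower by -0.56 (limma adjusted p = 0.0161) and by -1.47 with spike-in scaling. The antifibrotic miR-29a-3p, miR-29b-3p and miR-29c-3p did not pass, with 0.10, 0.34 and -0.52. With spike-in scaling miR-29a-3p (-0.75, limma adjusted p = 0.00732) and miR-29c-3p (-1.31, 0.00213) were lower, and miR-29b-3p gave -0.58 without passing. The remaining list members tested, miR-26a-5p (-0.42) and miR-155-5p (0.89), did not pass either, and miR-26a-5p was lower with spike-in scaling (-1.12, limma adjusted p = 0.00213).

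Marker miRNAs of other cell types also differed between the groups. Of the leukocyte list 6 of 7 were tested and 3 were higher in the TULP group, beside 13.9% of all tested miRNAs: miR-146b-5p by 2.90, miR-223-3p by 2.10 and miR-142-3p by 2.01. The lymphocyte-enriched miR-150-5p of this list went the other way, with -0.59 (limma adjusted p = 0.0737), and was lower with spike-in scaling (-1.26, 0.00117). The list's summed normalized signal was 63.2 to 95.8 in the sham group and 158 to 253 in the TULP group. Of the striated muscle list 4 of 7 were tested and 3 were lower, beside 16.6% of all tested miRNAs: miR-133a-3p by -0.96, miR-1-3p by -0.74 and miR-133b-3p by -0.72, with sums of 4043 to 5659 in the sham group and 2639 to 4637 in the TULP group. The other tested member, miR-206-3p, gave 0.25 without passing (limma adjusted p = 0.795). The 6 miRNAs of these lists that passed kept their directions with spike-in scaling. miR-499-5p, miR-208a-3p and miR-208b-3p of that list were not detected.

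The epithelial list had 8 of 11 tested and 0 passing in either direction, beside 30.5% of all tested miRNAs. The list's sums were 496 to 681 in the sham group and 390 to 950 in the TULP group. Its median difference was -0.70, with the lowest at miR-375-3p (-2.03, limma adjusted p = 0.0675) and miR-200c-3p (-1.46, 0.0753). With spike-in scaling 6 of the 8 passed as lower, beside 54.3% lower and a median of -0.78 over all tested miRNAs. Among the 6 were miR-200a-3p (-1.51, limma adjusted p = 0.00307) and miR-375-3p (-2.39, 0.00323). Its miR-200 members were present in both groups. Of the smooth muscle list 2 of 3 were tested and 0 passed, and the endothelial miR-126a-3p differed by 0.01. With spike-in scaling miR-126a-3p was lower (-0.80, limma adjusted p = 0.0125). So were miR-143-3p (-0.98, 0.0150) and miR-145-5p (-1.24, 0.0209) of the smooth muscle list, beside 54.3% lower over all tested miRNAs. The erythroid list had 2 of 3 tested and 1 lower, miR-486 (-0.79, limma adjusted p = 0.0498), beside 16.6% lower over all tested miRNAs. The part of these shifts in the differences of miR-214-3p and miR-199a-5p was not tested.

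Across the 8 arrays the cluster's miRNAs varied together to a moderate degree. Pearson's r was 0.76 between miR-199a-5p and miR-214-3p (Spearman's rho 0.79), 0.65 between miR-199a-3p and miR-214-3p (0.75) and 0.57 between the miR-199a strands (0.76). The arrays come from different groups, so these values hold the group difference too, and all points share the normalization.

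The miRNAs whose pattern over the 8 arrays was most like that of each member were taken from the 119 other miRNAs detected on every array. For miR-214-3p they were miR-20a-5p (r = 0.95, rho = 0.90), miR-223-3p (0.94, 0.92) and miR-146b-5p (0.91, 0.97). For miR-199a-5p they were miR-93-5p (r = 0.97, rho = 0.97), miR-146b-5p (0.94, 0.87) and miR-1949 (0.91, 0.87). For miR-199a-3p they were miR-409a-3p (r = 0.78, rho = 0.80), miR-3085 (0.75, 0.80) and miR-34a-5p (0.73, 0.68). Of these, miR-146b-5p and miR-223-3p are on the leukocyte list and miR-34a-5p is on the fibrosis list. Since the groups differ, such a likeness over all 8 arrays holds the group difference as well. That difference depends on the scaling. It was 2.90 for miR-146b-5p and 2.10 for miR-223-3p, and 2.10 and 1.33 with spike-in scaling. For the other miRNAs named here it was 0.64 to 1.08, and -0.02 to 0.28 with spike-in scaling.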

How the data were processed

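Total RNA of prostatic urethral tissue was measured on a 1-colour rat miRNA array, 1 array per sample. Per the file headers, the scanner software was Agilent Feature Extraction 10.7.1.1, and the deposited scanner files hold spot intensity on a linear scale, background subtracted and not normalized between arrays, with detection flags of 0 or 1. The authors also deposited a table of quantile normalized log2 values, used for an alternative. 

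The signal of a miRNA was rebuilt as the sum over probes above 3 times their error (0.1 where there was none), quantile normalized over 758 rat miRNAs, raised to a floor of 1.94 (the dimmest normalized detected signal of each array, median of 8) and converted to log2. The stored totals per miRNA were an alternative. The 151 miRNAs detected on at least 4 of 8 arrays entered a linear model with group as its only term (limma 3.58.1, lmFit and eBayes, R 4.3.3), with Benjamini-Hochberg adjustment over all of them at 0.05, and a more than 2-fold change for a call of differential expression. Strand ratios were fitted over the 11 precursors with both strands tested. The fit was tested on simulated data.

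Groups and replicate numbers came from the titles. The miRNAs named are the cluster members, list members passing the adjusted p, and the 3 miRNAs with the highest Pearson r to each member. Further names were added with their values known. The members and lists were chosen with earlier results of these data known. The stromal and smooth muscle lists share miR-143-3p and miR-145-5p, and the fibrosis and leukocyte lists share miR-155-5p. Alternatives covered the signal, scaling, background correction, floor, detection filter, slide row, replicate number and each array left out. The number of arrays limits the precision.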

Additional observations from a re-analysis of the deposited data

Results flagged for a closer look

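In sham replicate 1, the normalized log2 signal of miR-199a-5p was 3.16, far below the other 3 sham arrays (3.71 to 3.79). On the same array the log2 ratio of miR-199a-3p over miR-199a-5p after normalization was 4.57, far above the others of its group. Before normalization the ratio on that array was 4.18, within the sham range of 3.98 to 4.27. Both values were singled out because the gap to the nearest sham array, divided by the range of the group, was above Dixon's limit of 0.829. Of 14 groups of values looked at in this way, chance would single out about 1 in 20. Without sham replicate 1 the difference of miR-199a-5p was 0.47 (limma adjusted p = 0.0268).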

How the results depend on the processing

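Scaling to the spike-ins turned miR-199a-5p to -0.074 and miR-199a-3p to -0.50, and left miR-214-3p at 0.12. Without normalization miR-199a-3p turned to -0.27, with 0.16 for miR-199a-5p and 0.35 for miR-214-3p. Stored totals gave 0.58 and 0.71 for miR-199a-5p and miR-214-3p, and the slide row block 0.49 and 0.89, all without passing. For miR-199a-3p stored totals gave 0.035, the 20-base probe alone 0.093 and the deposited values 0.16, without passing. Background correction with normexp and an offset of 50 gave 0.10 for miR-199a-5p without passing, 0.19 for miR-199a-3p, which then passed (limma adjusted p = 0.0312), 0.54 for miR-214-3p, which still passed (0.0453) though its groups overlapped, and a strand ratio turned to 0.084. With each array left out the differences were 0.47 to 0.67 for miR-199a-5p, 0.18 to 0.31 for miR-199a-3p, 0.77 to 1.11 for miR-214-3p and -0.45 to -0.22 for the strand ratio.

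The 14 differentially expressed miRNAs became 53 with spike-in scaling, 34 without normalization, 1 with normexp and 8 among miRNAs detected on all 8 arrays. The 46 passing the adjusted p became 87 with spike-in scaling and 28 with stored totals or the slide row block. The 3 stromal miRNAs became 10 with spike-in scaling and 6 without normalization, and the 3 fibrosis miRNAs became 5 with spike-in scaling. With each array left out these counts ran from 9 to 21, 28 to 57, 2 to 4 and 3 to 6. The lowest count of calls, 9, was without TULP replicate 3, the lowest of passing miRNAs, 28, without sham replicate 3, and the highest of fibrosis miRNAs, 6, without TULP replicate 1. The causes were not tested.

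The replicate numbers did not pair the samples: same-numbered arrays deviated together with r = 0.13, -0.10, 0.27 and -0.10, and 2 of 8 arrays correlated best with their own number. With the replicate number as a block 37 miRNAs passed the adjusted p, and miR-199a-5p (0.60, limma adjusted p = 0.0639) did not. Over all alternatives miR-214-3p kept its direction and its side of the adjusted p in 19 of 23, miR-199a-3p in 20 of 23 and miR-199a-5p in 13 of 22. For miR-199a-3p that side was not passing. For miR-199a-5p the count includes its longer probe alone, which had to repeat the main result because the other probe was not detected. The dim 18-base probe of miR-199a-5p leaves that strand with a single usable probe.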
